A study of Homo sapiens with 12 samples.

Results

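NF-kappaB is a family of transcription factors that bind DNA as dimers of related subunits and switch on genes of B-cell activation, inflammation and survival. In unstimulated cells, inhibitors of the IkB family hold the dimers in the cytoplasm until IkB kinase marks those inhibitors for destruction, while a slower, non-canonical arm works through processing of the NFKB2 precursor and its partner RELB. Several inhibitors and signal modifiers are themselves targets of the factor, so their RNA rises with its activity and forms its negative feedback, and active NF-kappaB signalling is a known feature of many diffuse large B-cell lymphomas (DLBCL).

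The genes described here are 10 in number. They are the 5 subunits NFKB1, NFKB2, REL, RELA and RELB, the 2 inhibitors NFKBIA and NFKBIE, and the 3 targets TNFAIP3, BIRC3 and TRAF1. They were matched by symbol. Of the 60675 Ensembl identifiers counted in each library, 56558 have an entry in GENCODE release 44. All 10 genes are among those, on 8 chromosomes. The members and the other gene lists used below were chosen with earlier results of these data known. Counts of them set beside the share of all genes are therefore a description and not a test.

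The libraries are RNA sequencing of SUDHL6 and SUDHL16, human DLBCL lines sensitive to venetoclax, which inhibits the anti-apoptotic protein BCL2, and of a resistant line derived from each. To derive the resistant lines, the venetoclax dose was raised step by step over a long culture. The resulting cells can divide at 10 or more times the IC50 of their parental line, and stocks were kept under the drug. Whether venetoclax was present when RNA was taken is not stated, as the methods mention only a change of medium ahead of experiments. Each of the 4 groups has 3 libraries. The labels do not say whether these came from separate cultures, so the p-values measure the spread among these libraries and nothing wider. For SUDHL6 the NEBNext Ultra II kit and a HiSeq instrument were used, and for SUDHL16 an Illumina stranded total RNA kit with RiboZero Plus and a NovaSeq instrument. Kit and instrument therefore cannot be told apart from the line, and changes and levels are taken within a line, except in a measure of likeness over both.

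Total counts in SUDHL6 were 34177881 in CE-7, 33992784 in CE-8 and 40885665 in CE-9 (parental), and 40170602 in CE-10, 40298116 in CE-11 and 36212755 in CE-12 (resistant). The SUDHL16 libraries were shallower: 16685929 in CE-25, 4131927 in CE-26 and 15098425 in CE-27 (parental), and 14335460 in CE-28, 20104607 in CE-29 and 22068221 in CE-30 (resistant). CE-26 stood apart from the other 5. It had counts on 34938 genes, against 20896 to 24655. In CE-26, 31.9% of counts (exact binomial 95% interval 31.90 to 31.99%, which covers counting error only) fell on identifiers without a GENCODE entry, against 1.61 to 5.06%. Protein-coding genes took 55.4% of its counts, against 84.3 to 90.2%. Tests of the members within SUDHL16 are therefore given with and without this library.

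Levels are given in CPM, which are counts relative to the depth of the library after scaling within each line by the trimmed mean of M-values (TMM). A gene was called changed where the edgeR quasi-likelihood test gave a Benjamini-Hochberg adjusted p under 0.05 over all genes tested in that line and the change was at least 1.5-fold. Every adjusted p here comes from that test unless another tool is named. The libraries of SUDHL6 were close to each other, with a typical coefficient of variation between libraries of 0.0516, whereas that of SUDHL16 was 0.468, and 0.339 without CE-26. A change of a given size was thus easier to call in SUDHL6. Mitochondrial genes took 5.61, 5.60 and 5.62% of counts in CE-7, CE-8 and CE-9 and 6.63, 6.59 and 6.34% in CE-10, CE-11 and CE-12, apart between the groups. In SUDHL16 they took 0.818, 2.62 and 1.05% in CE-25, CE-26 and CE-27 and 1.11, 0.752 and 1.14% in CE-28, CE-29 and CE-30, with CE-26 the highest. The part of these shares in the changes was not tested.

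In resistant SUDHL6 cells the feedback gene TNFAIP3 fell, and it was the only member called: 1 of 10, where 8.96% of all 16662 genes tested were called and 4.65% were called lower. Most of the other members also differed by small amounts. By adjusted p alone, at any size of change, 7 members were lower and 1, REL, was higher, where 19.7% of all genes tested were lower and 17.7% higher. In the fit of all 12 libraries, which shares its estimate of spread between the lines, 0 of these 8 passed by edgeR (adjusted p from 0.312 to 1), and 3 had an unadjusted p under 0.05, while DESeq2 within SUDHL6 passed 8 of them. The median log2 fold change of the 10 members was −0.14, against 0.00 for all genes tested. Without CE-9 or CE-10, TRAF1 was called as well and the members called were 2.

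In resistant SUDHL16 cells TNFAIP3 went the opposite way. TNFAIP3 and TRAF1 rose and were called, 2 of 10, where 5.30% of all 15708 genes tested were called and 3.20% were called higher. Without CE-26 the members called were again TNFAIP3 and TRAF1, where 10.0% of 16280 genes tested were called. The median log2 fold change of the 10 members was 0.41, against −0.02 for all genes tested, and 0.37 without CE-26, against 0.05. The counts changed with the libraries kept. Of all genes, 833 were called, but 407 without CE-25, 1636 without CE-26, 460 without CE-27, 318 without CE-28, 279 without CE-29 and 324 without CE-30, and the members called were then 1, 2, 1, 1, 0 and 0.

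**Figure D1:**
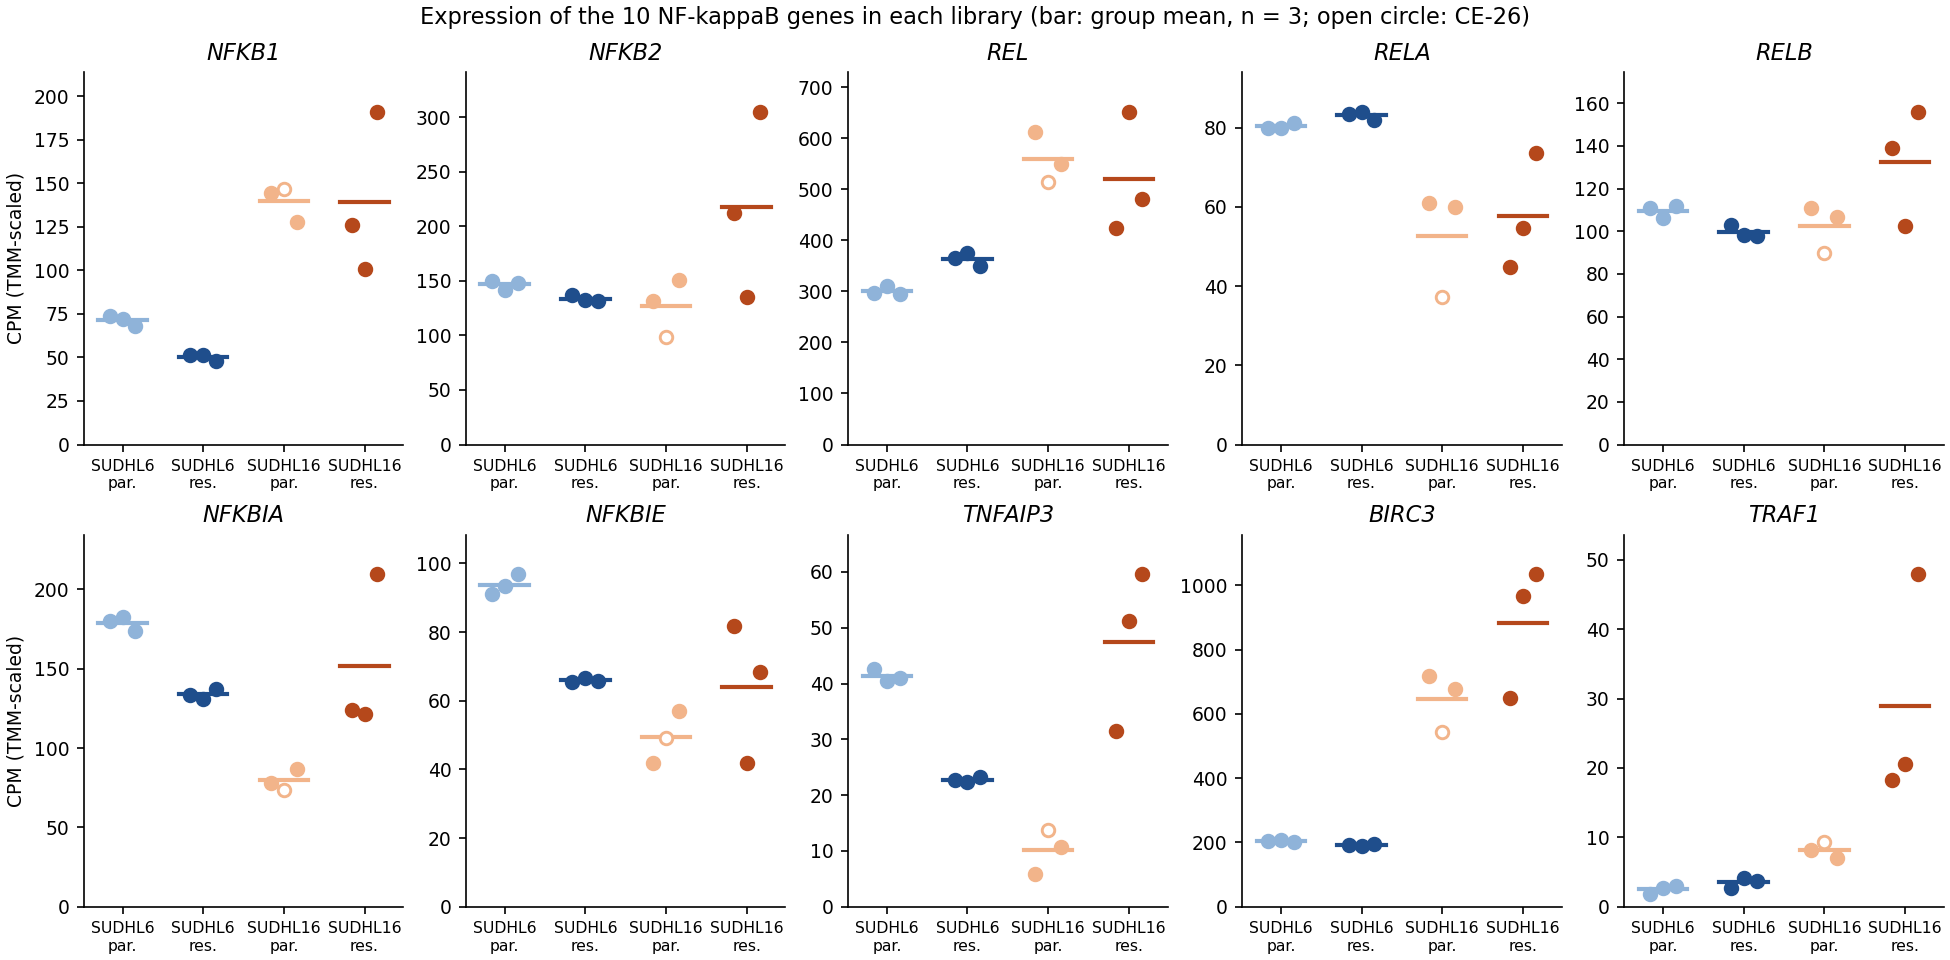
Level (CPM) of each of the 10 members in each of the 12 libraries, with a bar at the mean of the 3 libraries of a group and CE-26 as an open circle. TNFAIP3 is lower in the resistant group of SUDHL6 (22.4 to 23.2, against 40.4 to 42.6) and higher in that of SUDHL16 (31.4 to 59.5, against 5.95 to 13.8).

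The plot of CPM by library shows where the resistant and parental groups separate. In SUDHL6, 7 members were lower in all resistant libraries than in any parental library, 2 (REL and RELA) were higher, and TRAF1 overlapped. In SUDHL16, NFKBIA, TNFAIP3 and TRAF1 were higher in all resistant libraries, and the other 7 members overlapped. For neither line is the share of all genes that separate in this way given, so these counts describe the members only.

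The promoters of TNFAIP3, NFKBIA and TRAF1 are printed because these 3 genes were called in a line or changed differently in the lines. The sequences come from the RefSeq promoter table (GRCh38.p14), which has windows of 250 bases before to 50 after a start site for 8 of the members and none for RELB or NFKBIE. What is printed are the bases that lie before the gene, 5′ to 3′ on its own strand, and capitals mark matches to the kappaB consensus decamer, searched on both strands with overlapping matches counted at each position. They are TNFAIP3 at chr6:137867009-137867213 (plus strand, 205 bases), NFKBIA at chr14:35404750-35404999 (minus strand, 250 bases) and TRAF1 at chr9:120929174-120929421 (minus strand, 248 bases).
TNFAIP3: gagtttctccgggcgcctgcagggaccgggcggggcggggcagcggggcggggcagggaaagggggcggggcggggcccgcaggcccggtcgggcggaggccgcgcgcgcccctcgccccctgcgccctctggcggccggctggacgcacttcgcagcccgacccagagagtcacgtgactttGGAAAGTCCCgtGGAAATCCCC
NFKBIA: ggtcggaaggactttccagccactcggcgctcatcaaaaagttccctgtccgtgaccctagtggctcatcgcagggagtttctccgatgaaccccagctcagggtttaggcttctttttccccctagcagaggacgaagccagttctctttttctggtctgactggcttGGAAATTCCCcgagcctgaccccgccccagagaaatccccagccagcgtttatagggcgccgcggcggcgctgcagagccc
TRAF1: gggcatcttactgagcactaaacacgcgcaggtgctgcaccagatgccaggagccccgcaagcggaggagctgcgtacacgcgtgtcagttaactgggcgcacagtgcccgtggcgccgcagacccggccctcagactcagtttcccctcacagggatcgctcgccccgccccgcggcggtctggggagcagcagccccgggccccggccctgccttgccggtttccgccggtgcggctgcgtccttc

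The TNFAIP3 stretch holds 2 matches close together, at −67 to −58 and −55 to −46 bases from the RefSeq start, the NFKBIA stretch holds 1, at −81 to −72, and the TRAF1 stretch holds 0. Over the whole table, 2075 of 35116 windows (5.91%) hold at least 1 match and 259 (0.74%) hold at least 2. Among the members, 7 of 14 windows, from 6 of the 8 genes, hold a match. A match is a string of letters in this window, not evidence of binding.

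**Figure D2:**
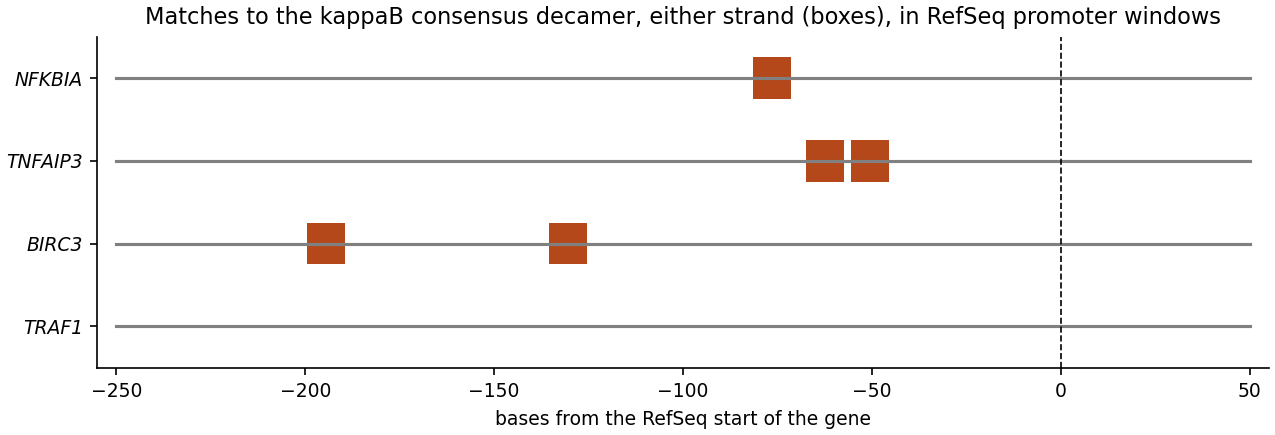
Matches to the kappaB consensus decamer (blocks) in the promoter windows of NFKBIA, TNFAIP3, BIRC3 and TRAF1, by distance in bases from the RefSeq start site. BIRC3 has matches at −199 to −190 and −135 to −126, farther from the start than those of TNFAIP3 and NFKBIA, and none is found in the TRAF1 windows.

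The map of these matches sets the windows side by side. Those of TNFAIP3, NFKBIA and BIRC3 each hold a match within 200 bases before the start. Their log2 fold changes were −0.86, −0.42 and −0.08 in SUDHL6 and 2.27, 0.93 and 0.45 in SUDHL16, and those of TNFAIP3 were called. NFKB1, NFKB2 and REL, not drawn, also hold a match within 200 bases. They changed by −0.50, −0.14 and 0.27 in SUDHL6 and by −0.00, 0.77 and −0.11 in SUDHL16. RELA and TRAF1, with no match, changed by 0.05 and 0.49 in SUDHL6 and by 0.12 and 1.84 in SUDHL16, the last called. The part of the matches in these changes was not tested.

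Among the subunits, NFKB1 encodes the precursor that is trimmed to the p50 subunit of the canonical dimers. Its CPM in SUDHL6 was 73.6, 72.2 and 67.9 in the parental libraries CE-7, CE-8 and CE-9, and 51.3, 51.4 and 48.02 in the resistant libraries CE-10, CE-11 and CE-12. All resistant libraries lay under all parental ones, with a gap wider than the spread within either group. The log2 fold change was −0.50 (SE, the standard error, 0.0385, adjusted p = 5.2e-07, lower in 3 of 3 resistant libraries), short of the 1.5-fold threshold. In SUDHL16 the CPM was 145, 147 and 128 in CE-25, CE-26 and CE-27, and 126, 101 and 191 in CE-28, CE-29 and CE-30. The resistant libraries spread on both sides of the parental ones. The log2 fold change there was −0.00 (SE 0.286, adjusted p = 0.994) and 0.04 without CE-26, and its sign also turned under scaling by library totals (0.14).

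NFKB2 encodes the precursor of the non-canonical arm. In SUDHL6 it stood at 149.95, 142 and 149 CPM in CE-7, CE-8 and CE-9 and at 137, 132 and 132 in CE-10, CE-11 and CE-12. The groups did not overlap, but the step between them was slight, a log2 fold change of −0.14 (SE 0.0279, adjusted p = 0.00193, lower in 3 of 3). In SUDHL16 it stood at 132, 98.5 and 151 CPM in CE-25, CE-26 and CE-27 and at 212, 135 and 305 in CE-28, CE-29 and CE-30. CE-29 lay within the parental range while CE-28 and CE-30 lay above it, and the log2 fold change of 0.77 (SE 0.342, adjusted p = 0.268; 0.63 and 0.309 without CE-26) was not called.

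RELB, the partner of processed NFKB2, followed the same outline. Its CPM in SUDHL6 was 111, 106 and 112 in the parental libraries (CE-7 to CE-9) and 103, 98.4 and 97.6 in the resistant libraries (CE-10 to CE-12), with a log2 fold change of −0.14 (SE 0.0308, adjusted p = 0.0033, lower in 3 of 3). The SUDHL16 values were 111, 89.5 and 107 in CE-25, CE-26 and CE-27 and 139, 103 and 156 in CE-28, CE-29 and CE-30. Again CE-29 fell inside the parental range and CE-28 and CE-30 above it. For RELB that gave a log2 fold change of 0.37 (adjusted p = 0.48), and 0.30 without CE-26 (adjusted p = 0.538).

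REL encodes c-Rel, a transactivating subunit prominent in B cells. It was the member that went up in SUDHL6 by adjusted p: 298, 310.0 and 296 CPM in CE-7, CE-8 and CE-9, against 365, 376 and 350.3 in CE-10, CE-11 and CE-12. Every resistant library exceeded every parental one. REL thus had a log2 fold change of 0.27 (SE 0.0269, adjusted p = 5.26e-06, higher in 3 of 3), under the 1.5-fold threshold. In SUDHL16 the values were 612, 515 and 550.5 in CE-25, CE-26 and CE-27 and 425, 651 and 482 in CE-28, CE-29 and CE-30. Here CE-29 was the highest library and CE-28 the lowest, both resistant, and the log2 fold change of −0.11 (adjusted p = 0.889; −0.15 without CE-26) had the opposite sign under scaling by library totals (0.02).

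RELA, the p65 subunit of the main canonical dimer, moved least in SUDHL6. Its CPM was 79.9, 79.9 and 81.1 in CE-7, CE-8 and CE-9 and 83.3, 83.9 and 82.0 in CE-10, CE-11 and CE-12, a log2 fold change of 0.05 (SE 0.0257, adjusted p = 0.161). In SUDHL16 it was 60.9, 37.2 and 59.96 in CE-25, CE-26 and CE-27, and 44.8, 54.6 and 73.5 in CE-28, CE-29 and CE-30. CE-26 was the lowest library and the groups overlapped. Its log2 fold change of 0.12 (adjusted p = 0.872) became −0.06 without CE-26. Over the 5 subunits, edgeR called 0 in SUDHL6 and 0 in SUDHL16, where 8.96% and 5.30% of all genes were called. DESeq2 called 0 in each, where it called 7.84% and 11.3% of all genes. By edgeR, 4 and 0 had an unadjusted p under 0.05. Counts by unadjusted p, here and elsewhere, are given without the share of all genes. They describe the listed genes only.

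**Figure D3:**
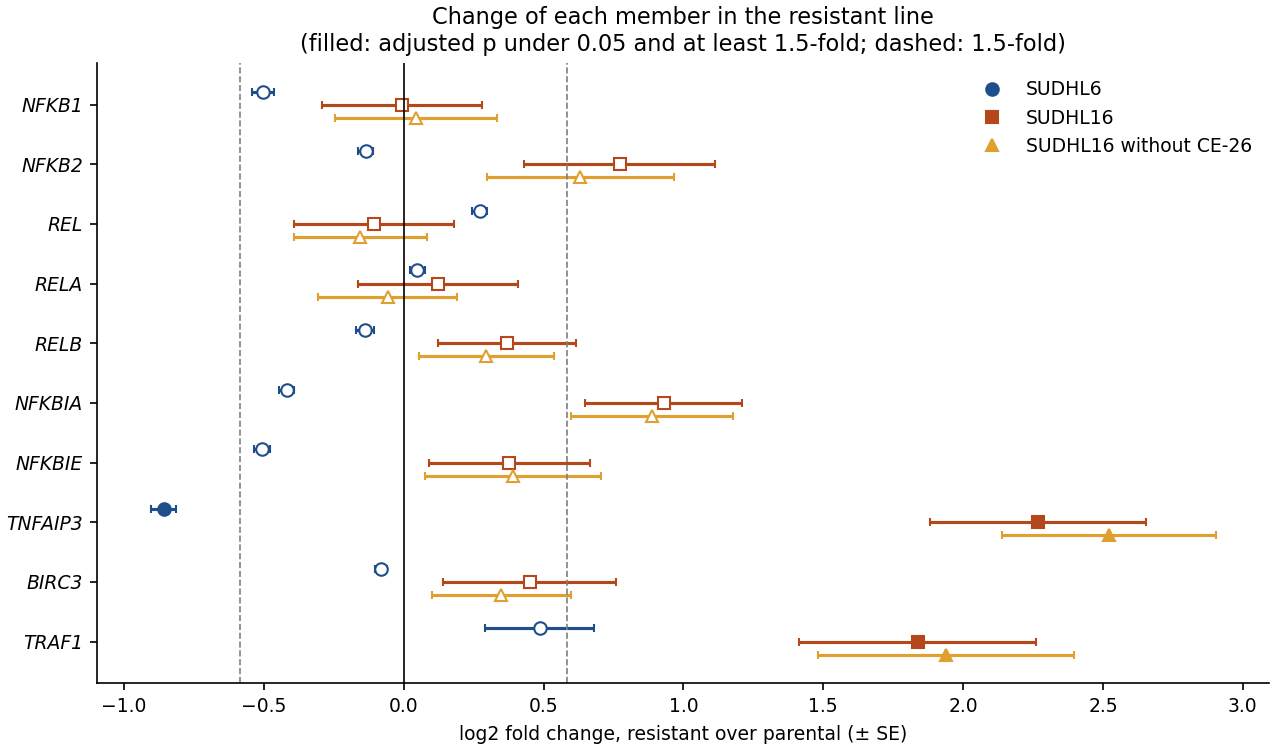
Log2 fold change (resistant over parental) of each member with its standard error, in SUDHL6, in SUDHL16 and in SUDHL16 without CE-26, with filled points for called genes and dashed lines at 1.5-fold. TNFAIP3 lies at −0.86 in SUDHL6 and 2.27 in SUDHL16, while the signs of NFKB1, REL and RELA in SUDHL16 turn with the scaling, the test or the library left out.

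NFKBIA encodes IkB-alpha, the inhibitor that is resynthesised soon after NF-kappaB enters the nucleus. In SUDHL6 its CPM was 180, 183 and 174 in CE-7, CE-8 and CE-9, and 133, 131 and 137 in CE-10, CE-11 and CE-12. The resistant libraries sat together well under the parental ones. The log2 fold change was −0.42 (SE 0.027, adjusted p = 1.08e-07, lower in 3 of 3), less than 1.5-fold. In SUDHL16 the CPM was 78.3, 73.7 and 86.8 in CE-25, CE-26 and CE-27, and 124, 122 and 209 in CE-28, CE-29 and CE-30. There all resistant libraries exceeded the parental ones, and CE-30 stood well above the other 2. The log2 fold change of 0.93 (SE 0.281, higher in 3 of 3) had an adjusted p of 0.109, and 0.89 without CE-26 one of 0.098, so it was not called. The gene was called by DESeq2 (0.0286), by limma voom (0.0314) and in a fit of all 12 libraries (0.0108), and its adjusted p over the alternatives ran from 0.0108 to 0.302.

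NFKBIE encodes IkB-epsilon, a later-acting inhibitor. In SUDHL6 its CPM was 91.2, 93.4 and 96.8 in CE-7, CE-8 and CE-9 and 65.5, 66.7 and 65.9 in CE-10, CE-11 and CE-12. The resistant values were tight and lower throughout, with a log2 fold change of −0.51 (SE 0.0293, adjusted p = 4.16e-08, lower in 3 of 3), short of 1.5-fold. In SUDHL16 it was 41.8, 49.2 and 57.0 in CE-25, CE-26 and CE-27 and 81.9, 42.0 and 68.4 in CE-28, CE-29 and CE-30. CE-29 was among the lowest libraries, so the groups overlapped, and the log2 fold change was 0.38 (SE 0.288, adjusted p = 0.547) and 0.39 without CE-26 (adjusted p = 0.531).

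TNFAIP3 encodes A20, a ubiquitin-editing enzyme that shuts down signalling to IkB kinase and is a classical target of NF-kappaB. Its promoter stretch is the printed one with 2 kappaB matches. In SUDHL6 its CPM was 42.6, 40.4 and 41.1 in CE-7, CE-8 and CE-9, and 22.7, 22.4 and 23.2 in CE-10, CE-11 and CE-12. The groups were tight and far apart. The level fell 1.81-fold, a log2 fold change of −0.86 (SE 0.046, adjusted p = 2e-08, lower in 3 of 3). It was called with each SUDHL6 library left out and in every other alternative but the fit of all 12 libraries, which gave an adjusted p of 0.312 (range over the alternatives 2.05e-44 to 0.312).

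In SUDHL16 the CPM of TNFAIP3 was 5.95, 13.8 and 10.7 in CE-25, CE-26 and CE-27, from 108, 40 and 172 counts, and 31.4, 51.2 and 59.5 in CE-28, CE-29 and CE-30, from 469, 1089 and 1400 counts. Even the lowest resistant library, CE-28, was above the highest parental one, CE-26. The level rose 4.81-fold, a log2 fold change of 2.27 (SE 0.386, adjusted p = 0.0138, higher in 3 of 3), and 5.74-fold without CE-26 (2.52, adjusted p = 0.00456). The call was lost without CE-29 (2.2, adjusted p = 0.0746) or CE-30 (2.08, adjusted p = 0.0721). Over the alternatives the log2 fold change ran from 1.98 to 2.52 and the adjusted p from 7.2e-06 to 0.0746.

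TRAF1 encodes an adaptor of tumour necrosis factor receptors that is induced by NF-kappaB. It was scarce in SUDHL6, at 1.91, 2.71 and 2.97 CPM in CE-7, CE-8 and CE-9 and 2.76, 4.21 and 3.72 in CE-10, CE-11 and CE-12. CE-10 lay inside the parental range. The log2 fold change of 0.49 (SE 0.195, adjusted p = 0.0708) was not called with all libraries, but was without CE-9 (0.62, adjusted p = 0.0485) or CE-10 (0.64, adjusted p = 0.0234).

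In SUDHL16 the CPM of TRAF1 was 8.16, 9.30 and 7.01 in CE-25, CE-26 and CE-27, and 18.2, 20.5 and 47.9 in CE-28, CE-29 and CE-30. All resistant libraries were higher than the parental ones, and CE-30 was more than double the other resistant libraries. The level rose 3.58-fold, a log2 fold change of 1.84 (SE 0.424, adjusted p = 0.0448, higher in 3 of 3), and 3.83-fold without CE-26 (1.94, adjusted p = 0.0327). This call was near its threshold. It was lost without CE-25 (adjusted p = 0.114), CE-27 (0.123), CE-28 (0.0688), CE-29 (0.0987) or CE-30 (log2 1.27, adjusted p = 0.122) and under upper-quartile scaling (0.0666), in a range over the alternatives from 0.00243 to 0.123.

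BIRC3 encodes cIAP2, a ubiquitin ligase that blocks cell death and acts in both arms of the pathway. Its CPM in SUDHL6 was 204, 207 and 199.97 in CE-7, CE-8 and CE-9 and 193, 190.3 and 194 in CE-10, CE-11 and CE-12. The resistant libraries were slightly lower without overlap, a log2 fold change of −0.08 (SE 0.0219, adjusted p = 0.0113, lower in 3 of 3). In SUDHL16 it was 717, 545 and 678 in CE-25, CE-26 and CE-27 and 650.0, 968 and 1034 in CE-28, CE-29 and CE-30. CE-28 lay within the parental range. For BIRC3 a log2 fold change of 0.45 (SE 0.308, adjusted p = 0.491; 0.35 and 0.47 without CE-26) was not called.

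By a test of the difference itself, TNFAIP3 and NFKBIA responded differently in the 2 lines. The difference between the lines, the log2 fold change in SUDHL16 minus that in SUDHL6, was tested in a fit of all 12 libraries at an adjusted p under 0.05. This fit shares its estimate of spread between the lines. In SUDHL16 it called 2855 genes, against 833 when that line was fitted alone, so its adjusted p may be too small. The difference passed for 2 of 10 members, where 7.16% of 19621 genes passed and 4.34% passed with a higher change in SUDHL16. For TNFAIP3 the difference was 3.20 (SE 0.383, adjusted p = 0.000383), with 3 of 3 resistant libraries lower in SUDHL6 and 3 of 3 higher in SUDHL16. Without CE-26 it was 3.35 (adjusted p = 0.000169), and it passed in every alternative, with adjusted p between 8.69e-12 and 0.00252.

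For NFKBIA the difference was 1.38 (SE 0.299, adjusted p = 0.0158), again with 3 of 3 lower in SUDHL6 and 3 of 3 higher in SUDHL16, and 1.27 without CE-26 (adjusted p = 0.0117). It missed the threshold narrowly without CE-8 (0.0506), CE-10 (0.0532), CE-11 (0.0565) or CE-12 (0.0512) and with no filter on low counts (0.0528), in a range from 8.04e-05 to 0.0565. TRAF1 was called in SUDHL16 only, but its difference of 1.4 had an adjusted p of 0.143, so the lines are not shown to differ for it. NFKBIE, with a difference of 0.92 and an adjusted p of 0.094, passed without CE-29 (1.17, adjusted p = 0.0141) and under limma voom (0.04), in a range from 0.0141 to 0.225.

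The other 6 members did not pass. Their differences were 0.93 for NFKB2 (adjusted p = 0.179), 0.56 for BIRC3 (0.3), 0.54 for NFKB1 (0.311), 0.54 for RELB (0.247), 0.09 for RELA (0.953) and −0.34 for REL (0.502). That of RELA changed sign under upper-quartile scaling (−0.04). Over the 10 members 9 differences were above 0, and their median was 0.74, against −0.05 for all genes. Among all genes, the same test passed 1404, of which 852 were higher in SUDHL16, whereas DESeq2 passed 2964, of which 1437 were higher, so the split of all genes by direction depended on the tool. The count of 1404 became 2930 without CE-26, and 850, 863, 856, 853, 830 and 839 without CE-7, CE-8, CE-9, CE-10, CE-11 and CE-12.

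Of 13576 genes tested in both lines, 131 were called in both. That is 8.77% of the 1493 called in SUDHL6, where 5.30% of all genes tested in SUDHL16 were called. It is 15.7% of the 833 called in SUDHL16, where 8.96% of all genes tested in SUDHL6 were called. The 1493 and 833 were counted over all genes tested in that line. Directions were opposite for 67 of the 131, and 41 were lower in SUDHL6 and higher in SUDHL16, TNFAIP3 among these.

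Corrected for length, the members fall in an order of RNA level that depends on the transcript length used. Which transcripts the cells express was not examined. By CPM alone REL, whose canonical transcript has 11108 bases, was the highest member in parental SUDHL6 (mean 301). The scale is CPM per kilobase of the canonical transcript, with the mean of the 3 libraries of a group in parentheses. In parental SUDHL6 the order was NFKBIA (115), NFKB2 (48.7), RELB (48.6), NFKBIE (40.0), RELA (31.9), BIRC3 (29.6), REL (27.1), NFKB1 (17.6), TNFAIP3 (8.86) and TRAF1 (0.582). Of neighbours in that order, NFKB2 and RELB alone overlapped. In resistant SUDHL6 it was NFKBIA (85.8), NFKB2 (44.3), RELB (44.1), RELA (33.0), REL (32.7), NFKBIE (28.2), BIRC3 (27.98), NFKB1 (12.4), TNFAIP3 (4.89) and TRAF1 (0.819). The pairs NFKB2 and RELB, RELA and REL, and NFKBIE and BIRC3 overlapped there.

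The order within SUDHL16 is given apart, since kit and instrument differ. In the parental group it was BIRC3 (94.0), NFKBIA (51.04), REL (50.3), RELB (45.4), NFKB2 (42.2), NFKB1 (34.5), NFKBIE (21.05), RELA (20.9), TNFAIP3 (2.17) and TRAF1 (1.87). Clear steps without overlap were those from BIRC3 to NFKBIA, NFKB1 to NFKBIE, and RELA to TNFAIP3. In the resistant group it was BIRC3 (129), NFKBIA (97.3), NFKB2 (72.1), RELB (58.7), REL (46.8), NFKB1 (34.3), NFKBIE (27.3), RELA (22.9), TNFAIP3 (10.2) and TRAF1 (6.64). There the step from RELA to TNFAIP3 was the one without overlap between neighbours. In both lines TNFAIP3 and TRAF1 were the least abundant members, and in SUDHL16 their libraries overlapped.

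**Figure D4:**
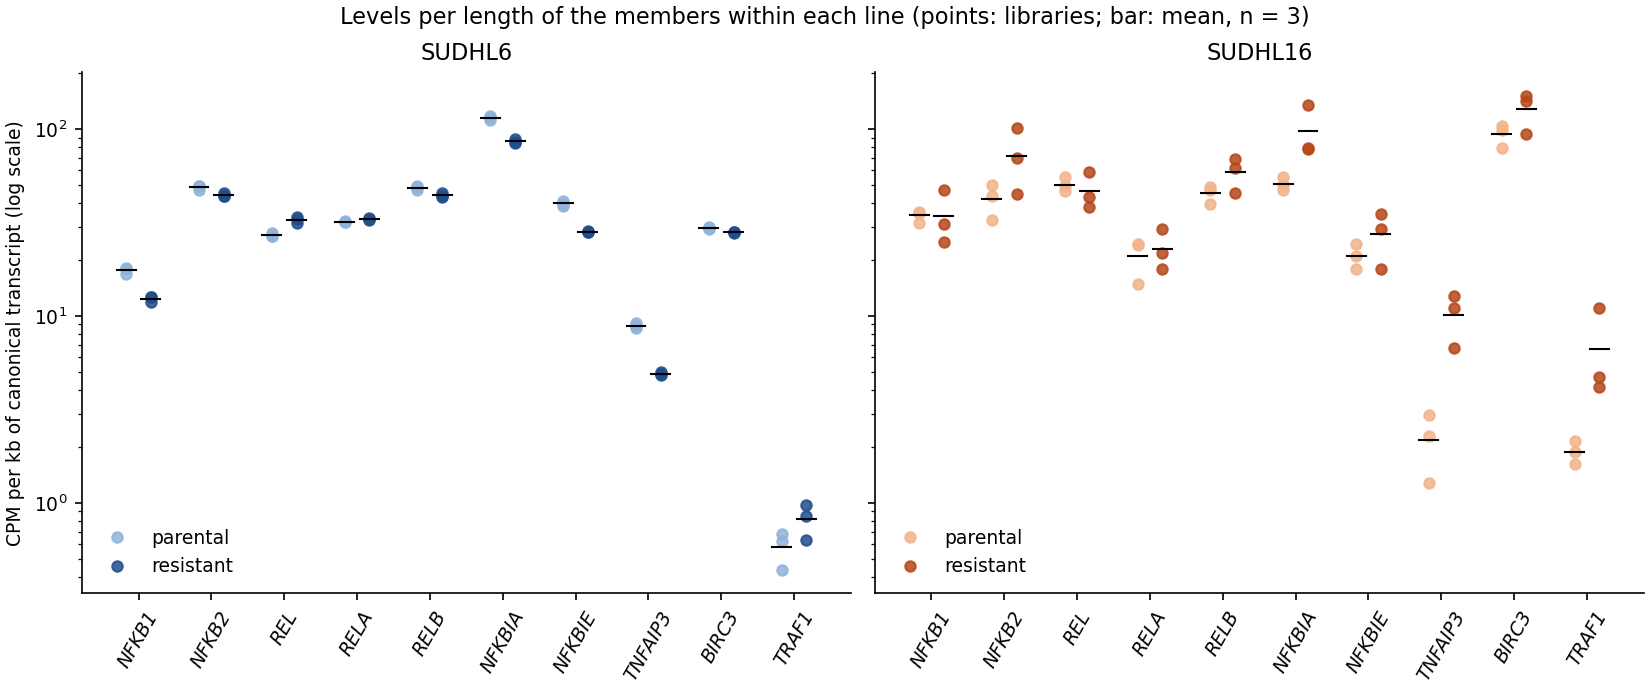
CPM per kilobase of canonical transcript of the 10 members in each library, on a log axis, for SUDHL6 and SUDHL16 with parental and resistant libraries side by side. Within SUDHL6 NFKBIA has the highest group means (115 and 85.8), and within SUDHL16 BIRC3 does (94.0 and 129), lines that also differ in kit and instrument. TRAF1 has the lowest means in each, though it overlaps TNFAIP3 in SUDHL16.

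The plot of levels per kilobase shows these orders library by library. Several members share bases with other genes, which could pass counts between them, and neither the counting tool nor its strand setting is stated. REL overlaps ENSG00000267520 on the same strand over 5702 exon bases, and that gene had 12 to 331 counts, 0.18 to 2.46% of those of REL. TNFAIP3 overlaps the antisense gene WAKMAR2 over 95 exon bases, and WAKMAR2 had 2 to 140 counts, 1.85 to 17.5% of those of TNFAIP3. RELA shares 103 exon bases with RELA-DT and BIRC3 126 with ENSG00000288528, genes that have no identifier in the count files. How far this affects the 4 members is uncertain.

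Beyond the 10 members, 5 lists hold 73 other genes of the pathway. In SUDHL6, 64 were tested and 13 called, 12 lower and 1 higher, where 8.96% of all genes were called, with a median log2 fold change of −0.08, against 0.00 for all genes. In the fit of all 12 libraries 3 were called, namely TRAF3, CFLAR and CD83, and the other 10 were lost, while the share of all genes called was then 0.714%. In SUDHL16, 66 were tested and 13 called, all 13 higher, where 5.30% of all genes were called, with a median of 0.43, against −0.02. The number called changed with the libraries kept: 21 were called without CE-26, 6 without CE-25, 6 without CE-27, 7 without CE-28, 6 without CE-29 and 5 without CE-30. The shares of all genes called in these fits were 10.0, 2.44, 2.70, 1.88, 1.67 and 1.96%, so they moved alongside. Of those 21, 20 were higher and 1, MAP3K14, was lower (log2 −0.81, adjusted p = 0.036), a gene singled out after its values were seen. The difference between the lines passed for 19 of 69 genes, 18 of them higher in SUDHL16, where 7.16% of all genes passed, with a median of 0.57, against −0.05. Without CE-26 it passed for 29 of 70, 24 higher in SUDHL16 and 5 lower, where 14.0% of all genes passed. Those 5 were CFLAR and, singled out after their values were seen, TAB1, RIPK1, MAP3K14 and TNF.

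**Figure D5:**
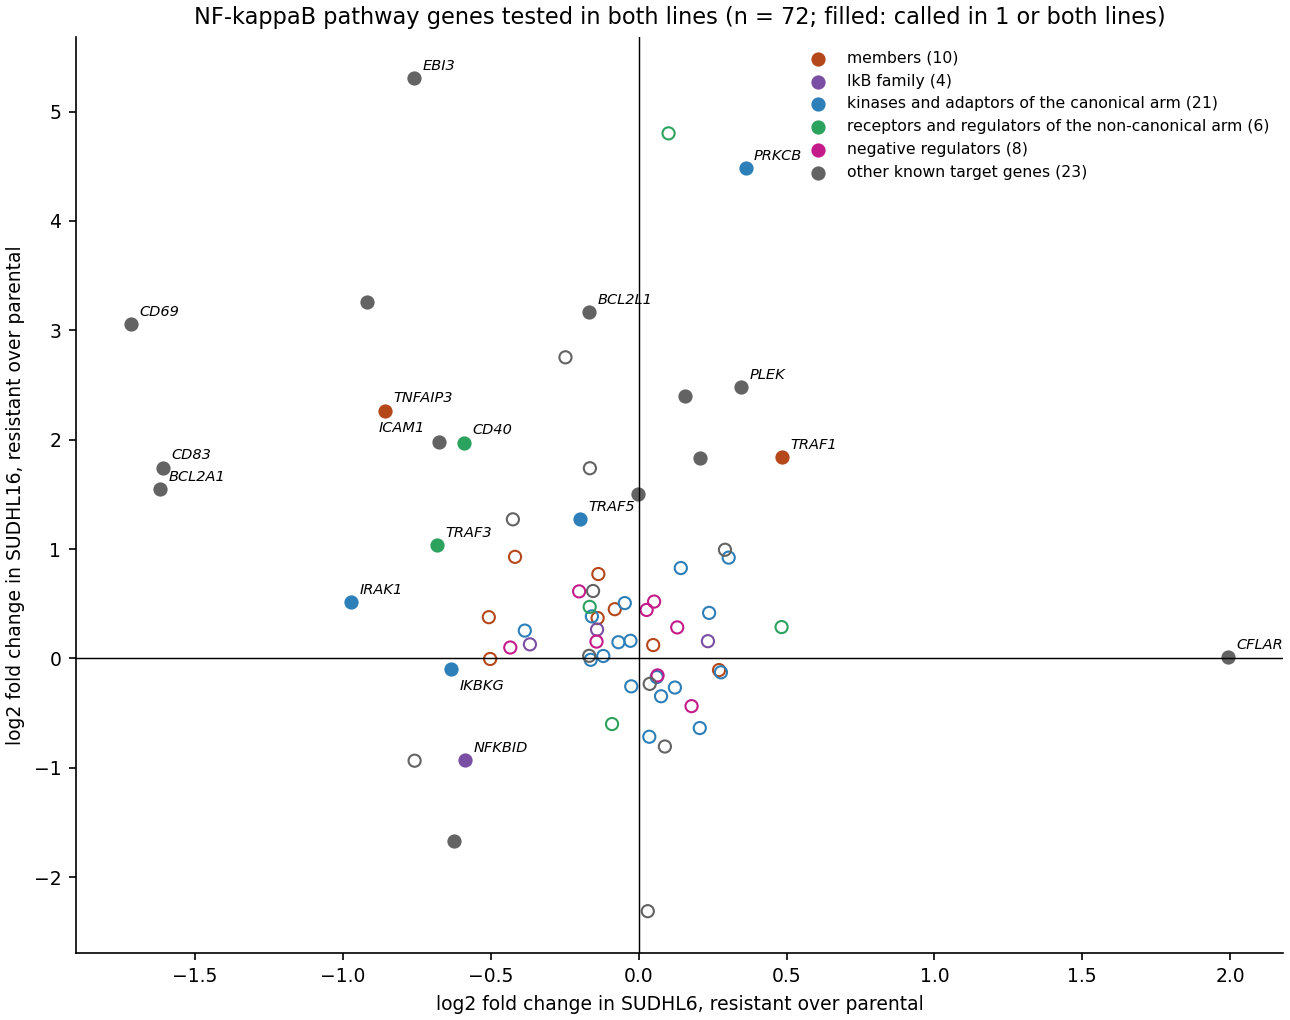
Log2 fold change in SUDHL6 (horizontal) and SUDHL16 (vertical) of the 72 member and other pathway genes tested in both lines, with the 22 called in 1 or both lines filled. CD83, CD40 and TNFAIP3 lie lower in SUDHL6 and higher in SUDHL16, and PRKCB and BCL2L1 lie high in SUDHL16 (4.49 and 3.16) and near 0 in SUDHL6 (0.36 and −0.17).

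The scatter of both changes places most of the called genes left of 0 in SUDHL6 or above 0 in SUDHL16. This follows from the calls already counted and is no separate result. Of the other IkB-family genes, 4 were tested in each line. In SUDHL6, NFKBID, which encodes a nuclear IkB protein, was called lower, where 8.96% of all genes were called, and the median was −0.25. In SUDHL16 edgeR called 0, where 5.30% of all genes were called, with a median of 0.14, while 1 had an unadjusted p under 0.05 and DESeq2 called 1, NFKBID in both cases, on the lower side. Without CE-26 edgeR again called 0 of 4, with 1 at an unadjusted p under 0.05. NFKBID fell barely past the threshold in SUDHL6 (log2 −0.59, adjusted p = 5.18e-08, lower in 3 of 3) and was not called without CE-7 (−0.58), CE-9 (−0.58) or CE-11 (−0.56), nor in any of the 7 alternatives that keep all libraries.

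Of 21 kinases and adaptors of the canonical arm, 2 were called in SUDHL6, both lower, where 8.96% of all genes were called, with a median of −0.03. They were IRAK1, a kinase of Toll-like receptor signalling, and IKBKG, the regulatory subunit of IkB kinase. IRAK1 had CPM of 225, 229 and 227 in CE-7, CE-8 and CE-9 and 115, 118 and 114 in CE-10, CE-11 and CE-12. That is near a halving in each resistant library, with a log2 fold change of −0.97 (adjusted p = 1.55e-11, lower in 3 of 3). IKBKG fell by 0.63 on the log2 scale (adjusted p = 1.63e-07, lower in 3 of 3).

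In SUDHL16, 2 of the same 21 were called, both higher, where 5.30% of all genes were called, with a median of 0.15. Without CE-26 the number called was also 2, where 10.0% of all genes were called. They were PRKCB, a kinase that links the B-cell receptor to IkB kinase, and the adaptor TRAF5. PRKCB had CPM of 15.1, 17.9 and 23.3 in CE-25, CE-26 and CE-27 and 351, 434 and 480 in CE-28, CE-29 and CE-30. The groups were an order of magnitude apart, a 22.4-fold rise (log2 4.49, SE 0.316, adjusted p = 0.000487, higher in 3 of 3) that was called with each SUDHL16 library left out (4.46 without CE-26). In SUDHL6 PRKCB was also higher, at 51.5, 49.8 and 46.5 CPM in CE-7, CE-8 and CE-9 and 60.8, 64.5 and 64.2 in CE-10, CE-11 and CE-12 (log2 0.36, adjusted p = 1.52e-05, higher in 3 of 3), under 1.5-fold. TRAF5 rose by 1.27 on the log2 scale (adjusted p = 0.029, higher in 3 of 3), and by 1.51 without CE-26. The call was lost with any other SUDHL16 library left out (CE-25, CE-27, CE-28, CE-29 or CE-30, log2 1.15 to 1.39, adjusted p from 0.0734 to 0.117) and under upper-quartile scaling (0.0568).

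Of 10 receptors and regulators of the non-canonical arm, 7 were tested in each line, and with all libraries the 2 called in each were TRAF3 and CD40, in opposite directions (among all genes, 8.96% were called in SUDHL6 and 5.30% in SUDHL16). With CE-26 left out, 7 of 8 tested in SUDHL16 were called, 6 higher and 1 lower, where 10.0% of all genes were called. The median with all libraries was −0.09 in SUDHL6 and 1.03 in SUDHL16. CD40, a receptor that feeds both arms in B cells, had CPM of 85.3, 83.6 and 81.5 in CE-7, CE-8 and CE-9 and 53.9, 54.2 and 58.3 in CE-10, CE-11 and CE-12. In SUDHL16 it had 60.8, 33.1 and 57.2 in CE-25, CE-26 and CE-27 and 166, 166 and 266 in CE-28, CE-29 and CE-30. No resistant library overlapped the parental ones in either line. Its log2 fold change was −0.59 in SUDHL6 (adjusted p = 5.1e-08, lower in 3 of 3) and 1.97 in SUDHL16 (adjusted p = 0.0126, higher in 3 of 3, and 1.76 without CE-26). The SUDHL6 call, near 1.5-fold, was lost without CE-7, CE-10 or CE-11 (−0.57 in each), under library totals alone, under upper-quartile scaling and in the fit of all 12 libraries, and the SUDHL16 call without CE-29 (adjusted p = 0.0549) or CE-30 (0.0634).

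TRAF3, which restrains the non-canonical kinase, fell by 0.68 on the log2 scale in SUDHL6 (adjusted p = 2.05e-06, lower in 3 of 3) and rose by 1.03 in SUDHL16 (adjusted p = 0.0281, higher in 3 of 3, and 1.02 without CE-26). The latter call was lost without CE-25, CE-27, CE-28, CE-29 or CE-30 (log2 0.97 to 1.09, adjusted p from 0.0872 to 0.135), under library totals alone (0.0933) and with no filter on low counts (0.0797). The difference between the lines was 1.75 for TRAF3 (adjusted p = 0.000151) and 2.58 for CD40 (adjusted p = 0.00153), and it passed with each of the 12 libraries left out. Among 8 negative regulators, edgeR called 0 in SUDHL6 and 0 in SUDHL16, where 8.96% and 5.30% of all genes were called. Their medians were 0.04 and 0.22. An unadjusted p under 0.05 was reached by 3 in SUDHL6 (TNIP1, TAX1BP1 and ZC3H12A, singled out after their values were seen) and 0 in SUDHL16, and DESeq2 called 0 in each.

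Other target genes made the longest list. Of 30, 24 were tested in SUDHL6, and 7 were called lower and 1 higher, where 8.96% of all genes were called, with a median of −0.17. In SUDHL16, 26 were tested and 9 called higher, where 5.30% of all genes were called, with a median of 1.53. Without CE-26, 12 of 26 were called higher, where 10.0% of all genes were called, with a median of 2.13. CD83, a B-cell activation marker, had CPM of 330.1, 317 and 331 in CE-7, CE-8 and CE-9 and 109, 104 and 108 in CE-10, CE-11 and CE-12. In SUDHL16 it had 110.2, 123 and 116 in CE-25, CE-26 and CE-27 and 312, 343 and 515 in CE-28, CE-29 and CE-30. The groups were apart in both lines and in opposite directions, with log2 fold changes of −1.61 (adjusted p = 1.85e-12, lower in 3 of 3) and 1.75 (adjusted p = 0.0116, higher in 3 of 3, and 1.8 without CE-26). The SUDHL16 call was lost without CE-25 (0.0611), CE-27 (0.0612) or CE-29 (0.0512).

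BCL2L1 encodes BCL-XL, an anti-apoptotic relative of the drug's target that venetoclax spares. In SUDHL16 its CPM was 32.7, 14.1 and 31.2 in CE-25, CE-26 and CE-27 and 222, 166 and 322 in CE-28, CE-29 and CE-30. The resistant libraries were all several times above the parental ones, an 8.96-fold rise (log2 3.16, adjusted p = 0.00391, higher in 3 of 3) that was called with each SUDHL16 library left out (2.9 without CE-26). In SUDHL6 the values were 87.4, 89.1 and 89.3 in CE-7, CE-8 and CE-9 and 78.1, 80.0 and 78.5 in CE-10, CE-11 and CE-12, a step of −0.17 on the log2 scale (adjusted p = 0.000246, lower in 3 of 3) that was under 1.5-fold. The difference between the lines was 3.33 (adjusted p = 0.000863).

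BCL2A1, another anti-apoptotic relative, went down in SUDHL6, from 7.67, 7.32 and 6.83 CPM in CE-7, CE-8 and CE-9 to 2.14, 2.38 and 2.59 in CE-10, CE-11 and CE-12 (log2 −1.62, adjusted p = 3.49e-07, lower in 3 of 3). In SUDHL16 it had 8.21, 20.3 and 7.26 in CE-25, CE-26 and CE-27 and 23.04, 22.4 and 55.0 in CE-28, CE-29 and CE-30. CE-26 was the high parental library, and the gene was called without it (log2 2.12, adjusted p = 0.0217) but not with it (1.55, adjusted p = 0.143). With all libraries kept it was also called under library totals alone (0.0481), limma voom (0.0025), no filter on low counts (0.0285) and the fit of all 12 libraries (0.0196). CFLAR, which blocks death-receptor signalling, was the target called higher in SUDHL6, from 1.73, 1.003 and 1.401 CPM in CE-7, CE-8 and CE-9 to 5.77, 5.89 and 4.85 in CE-10, CE-11 and CE-12 (log2 1.99, adjusted p = 2.29e-06, higher in 3 of 3).

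CCR7, a homing receptor, and CD69, an early activation marker, fell in SUDHL6 from low levels. CCR7 went from 1.38, 1.42 and 2.04 CPM in CE-7, CE-8 and CE-9 to 0.373, 0.347 and 0.523 in CE-10, CE-11 and CE-12 (log2 −1.97, adjusted p = 8.8e-05, lower in 3 of 3). CD69 had a log2 fold change of −1.72 (adjusted p = 0.00124, lower in 3 of 3). The other SUDHL6 calls among targets, CCL3 (log2 −0.62), ICAM1 (−0.68) and IRF4 (−0.92), are named after their values were seen. In the fit of all 12 libraries they were not called. That of CCL3 was lost without CE-7 (−0.51) or CE-11 (−0.58).

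In SUDHL16, EBI3, a cytokine subunit, rose from 0.716, 0 and 2.36 CPM in CE-25, CE-26 and CE-27 to 50.4, 27.9 and 72.4 in CE-28, CE-29 and CE-30 (log2 5.30, adjusted p = 0.00494, higher in 3 of 3, 5.05 without CE-26 and 6.47 without CE-27). PLEK, a protein kinase C substrate, rose from 89.7, 51.7 and 65.4 to 311, 355 and 491 (log2 2.48, adjusted p = 0.00422, higher in 3 of 3, and 2.32 without CE-26). IL10, a cytokine, had 3 counts over the parental libraries, all in CE-26, and 787 over the resistant ones, or 0, 1.03 and 0 CPM in CE-25, CE-26 and CE-27 and 7.37, 8.61 and 21.01 in CE-28, CE-29 and CE-30. The ratio of scaled counts pooled over each group was 163, with a 95% counting interval of 55.7 to 794 that does not cover the spread between libraries. The fitted log2 fold change of 6.64 was 5.55 without CE-25, 5.63 without CE-27 and 5.59 without CE-30. Its call (adjusted p = 0.0347, higher in 3 of 3) was lost without CE-25, CE-27, CE-28, CE-29 or CE-30 (adjusted p from 0.0846 to 0.233), by DESeq2 (0.0735) and under upper-quartile scaling (0.053), and without CE-26 the parental libraries hold 0 counts.

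ICAM1, GADD45B, IRF1 and JUNB complete the targets called higher in SUDHL16, and are named after their values were seen. ICAM1, an adhesion molecule, had a log2 fold change of 1.98 (adjusted p = 0.0104, higher in 3 of 3, and 2.31 without CE-26), lost without CE-30 (1.85, adjusted p = 0.0528). It was lower in resistant SUDHL6 cells, going from 81.4, 77.6 and 81.0 CPM in CE-7, CE-8 and CE-9 to 50.3, 48.6 and 51.5 in CE-10, CE-11 and CE-12, and the difference between the lines was 2.72 (adjusted p = 0.00017). The log2 fold change was 1.83 for GADD45B, a stress-response gene, 2.40 for IRF1, an interferon-pathway transcription factor, and 1.5 for JUNB, a subunit of AP-1. Without CE-26 they were 1.84, 2.96 and 1.47. These calls were lost when most other libraries were left out, while the changes stayed of similar size. GADD45B was not called without CE-25, CE-27, CE-28, CE-29 or CE-30 (log2 1.48 to 2.05, adjusted p from 0.0688 to 0.145), nor was IRF1 (2.11 to 2.59, adjusted p from 0.0629 to 0.111), and JUNB was not called without CE-25, CE-27, CE-28 or CE-30 (1.25 to 1.61, adjusted p from 0.0947 to 0.165).

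The genes whose pattern over libraries was most like that of TNFAIP3 were NT5DC1 (Pearson r of log2 CPM 0.989), NAPB (0.986) and CRK (0.984). For TRAF1 they were CDC42EP3 (0.982), RGS18 (0.967) and SH2D3C (0.964). The measure covers the 11 libraries other than CE-26 and 9666 genes whose mean reached 5 CPM. Log2 CPM was first centred on the mean of each line. This takes out differences in level between the lines, those from kit and instrument included, but not differences in spread. It is a description, with no test.

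Marker lists show what kind of cells the RNA came from. All 6 B-cell markers were tested in each line and had counts in every library, with sums of 3957 to 4154 CPM in SUDHL6, where MS4A1 was the most abundant, and 2334 to 3933 in SUDHL16, with CE-26 the lowest and CD22, PAX5 or CD79A on top. By edgeR 0 of them were called in either line, while 5 in SUDHL6 and 0 in SUDHL16 had an unadjusted p under 0.05, and DESeq2 called 0 in each. Summed levels of the 5 germinal-centre markers were higher in resistant SUDHL6 cells, going from 536, 524 and 535 CPM in CE-7, CE-8 and CE-9 to 716, 732 and 723 in CE-10, CE-11 and CE-12, with BCL6 the most abundant. There LMO2 (log2 1.86) and MYBL1 (0.98) were called higher and MME (−1.02) lower, where 8.96% of all genes were called. Without CE-7 BCL6 was called too (0.59). In SUDHL16 the sums were 1346, 1009 and 1188 CPM in CE-25, CE-26 and CE-27 and 987, 1181 and 1014 in CE-28, CE-29 and CE-30, and 0 of 5 were called by edgeR, 0 by DESeq2 and 0 at an unadjusted p under 0.05. Without CE-26 edgeR called 0 of the 6 B-cell and 0 of the 5 germinal-centre markers in SUDHL16, with 0 and 1 at an unadjusted p under 0.05. Of all genes tested there, edgeR called 5.30% with every library kept and 10.0% once CE-26 was dropped. These shares, and the 8.96% of SUDHL6, also apply to the marker lists that follow.

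Of the plasma-cell markers, 2 of 3 were tested in each line, and XBP1 was the most abundant. Their sums were 40.6, 43.1 and 44.1 CPM in CE-7, CE-8 and CE-9 and 20.9, 25.6 and 22.2 in CE-10, CE-11 and CE-12, and in SUDHL16 24.2, 19.975 and 8.13 in CE-25, CE-26 and CE-27 and 100.6, 89.3 and 115 in CE-28, CE-29 and CE-30. XBP1 was called lower in SUDHL6 (log2 −0.96, adjusted p = 8.37e-07, lower in 3 of 3) and higher in SUDHL16 (2.47, adjusted p = 0.0102, higher in 3 of 3, and 2.50 without CE-26), the latter lost without CE-28 (0.0522) or CE-30 (0.0612). SDC1 did not rise with it in SUDHL16, where it had 7 counts in CE-26 and 0 in the other 5 libraries. PRDM1 had 2 counts over the parental and 663 over the resistant SUDHL16 libraries, or 0, 0.689 and 0 CPM in CE-25, CE-26 and CE-27 and 9.38, 12.7 and 10.8 in CE-28, CE-29 and CE-30, a pooled ratio of 206 with a counting interval of 56.9 to 1708. The fitted log2 fold change of 7.12 was 6.09 without CE-25 and 6.18 without CE-27. Its call (adjusted p = 0.0169) was lost without CE-28 (0.091), CE-29 (0.122) or CE-30 (0.103), and without CE-26 the parental libraries hold 0 counts.

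Markers of other cell types were low. T-cell sums were 1.98, 15.2 and 2.86 CPM in CE-25, CE-26 and CE-27 and 17.01, 19.9 and 16.5 in CE-28, CE-29 and CE-30. CD3E, the most abundant in each of them but CE-26, was called higher in SUDHL16 (log2 2.59, adjusted p = 0.0455, higher in 3 of 3), and CD2 and CD3D had 0 counts in its resistant libraries. Of 5 T-cell markers 3 were tested there, and CD3G, the third beside CD3E and CD247, was not called and went the other way, from 0.331, 5.51 and 1.06 CPM in CE-25, CE-26 and CE-27 to 0, 0.376 and 0.723 in CE-28, CE-29 and CE-30 (log2 −2.48, adjusted p = 0.394, and −0.85 without CE-26). The CD3E call was lost without CE-25, CE-27, CE-28, CE-29 or CE-30 (adjusted p from 0.123 to 0.183) and was 3.34 without CE-26, when CD247 was called too. Of 5 fibroblast markers 1 was tested in SUDHL16, DCN, at 19.7, 25.5 and 19.7 CPM in CE-25, CE-26 and CE-27 and 0, 0.235 and 0.425 in CE-28, CE-29 and CE-30. It was called lower (log2 −6.47, adjusted p = 0.00267, lower in 3 of 3, −6.32 without CE-26 and −7.25 without CE-30), and fibroblast sums were 20.4, 48.9 and 19.9 in the parental libraries and 0.402, 0.659 and 0.468 in the resistant ones.

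Of the 6 myeloid markers, 0 were tested in SUDHL16 with all libraries, and 1, CD68, without CE-26, where it was not called (adjusted p = 0.0503), and their sums reached 12.1 CPM in CE-26 and stayed at or under 1.67 in its other libraries. In SUDHL6, 1 marker of each of these lists was tested and 0 were called, with 0 at an unadjusted p under 0.05 and 0 called by DESeq2. COL1A1, the fibroblast marker tested there, was called lower without CE-10 (log2 −1.54). T-cell sums in SUDHL6 ran from 2.15 to 3.43 CPM, myeloid sums from 0.266 to 0.743 and fibroblast sums from 0.413 to 2.44. The samples are cultured DLBCL lines, which the paper reports as authenticated by short tandem repeat profiling. These values are levels of marker genes in their RNA and do not show that other cell types were present. Their part in the results was not tested, and in bulk RNA fewer cells of a kind cannot be told apart from less RNA per cell.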

How the data were processed

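The authors trimmed reads with TrimGalore, used HISAT2 for alignment to GRCh38 and StringTie for transcript assembly, and deposited raw count files per gene. The sources used here do not say which tool made the counts and give neither its annotation nor its strand setting. Each count file covers 1 library, and identifiers were matched to GENCODE 44. Each line was fitted apart (R 4.3.3, edgeR 4.0.16: filterByExpr, TMM, quasi-likelihood F test, Benjamini-Hochberg adjustment over all genes tested), and the difference between the lines in a fit of all 12 libraries. Alternatives were DESeq2 1.42.0, limma 3.58.1 voom with quality weights, upper-quartile scaling, library totals alone, no filter on low counts, protein-coding genes only, a fit of all 12 libraries, and each library left out. The calling code was tested on simulated data. The members and lists were chosen with earlier results of these data known.

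The lists of other pathway genes were the IkB family, kinases and adaptors of the canonical arm, receptors and regulators of the non-canonical arm, negative regulators, and other known targets. They hold 73 symbols, of which 72 matched (SOD2 did not). Up to 4 called genes per list and direction in each line were named, those with the largest changes, and others are said to be named after their values were seen. Marker lists covered B cells, germinal-centre B cells, plasma cells, T cells, myeloid cells and fibroblasts. Python 3.11.15 made the tables, with scipy 1.17.1, numpy 2.4.6 and pandas 2.3.3, and matplotlib 3.10.9 the figures. Depth limits the precision most in CE-26, where TNFAIP3 has 40 counts and TRAF1 27.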

Additional observations from a re-analysis of the deposited data

Results flagged for a closer look

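The change from parental to resistant cells differed between the lines, by the edgeR test of the difference itself in a fit of all 12 libraries, for 2 members and 13 of the named pathway genes. Among all genes, 7.16% of 19621 passed the same test. The pathway genes were named because they were called within a line, so their count cannot be set against that share. The differences in log2 fold change, SUDHL16 minus SUDHL6, were 1.38 for NFKBIA, 3.20 for TNFAIP3, 1.53 for TRAF5, 1.5 for IRAK1, 4.16 for PRKCB, 1.75 for TRAF3, 2.58 for CD40, 3.26 for BCL2A1, 3.33 for BCL2L1, −1.89 for CFLAR, 4.86 for CD69, 3.40 for CD83, 6.05 for EBI3, 2.72 for ICAM1 and 2.15 for PLEK. The difference was negative for CFLAR alone of these, with a log2 fold change of 1.99 in SUDHL6 and 0.01 in SUDHL16. The latter was 0.71 without CE-26 (adjusted p = 0.0888, and −1.33 for the difference between the lines). In CE-26 CFLAR stood at 308 CPM, against 100.02 and 118 in CE-25 and CE-27 and 152 to 195 in the resistant libraries.

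Some of these lost the threshold with 1 library fewer, while the difference stayed of similar size. IRAK1 missed without CE-28 or any of CE-7 to CE-12 (log2 1.34 to 1.52, adjusted p from 0.057 to 0.0653). CFLAR missed without CE-28, CE-29, CE-30 or any of CE-7 to CE-12 (−2.07 to −1.7, adjusted p from 0.0538 to 0.109). CD69 missed without CE-25, CE-28, CE-29, CE-30 or any of CE-7 to CE-12 (4.58 to 5.20, adjusted p from 0.0521 to 0.119), and was 5.60 without CE-26 and 4.12 without CE-27. NFKBIA missed without CE-8, CE-10, CE-11 or CE-12 (1.37 to 1.4, adjusted p from 0.0506 to 0.0565). With all libraries kept, those that missed under some alternative were NFKBIA with no filter on low counts (0.0528), IRAK1 under library totals alone (0.0552) and with no filter (0.0818), CFLAR with no filter (0.0512), and CD69 with no filter (0.0835) and protein-coding genes only (0.0678). EBI3 passed throughout and was 7.22 without CE-27. The other 10 also passed with each library left out. Kit and instrument also differ between the lines, and the fit of all 12 libraries shares its estimate of spread between the lines. The part of these in the differences was not tested.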

How the results depend on the processing

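The number of members called in SUDHL6 was 1, and 0 in the fit of all 12 libraries (1 to 2 with a library left out). In SUDHL16 it was 2, and 1 under upper-quartile scaling and 3 by DESeq2 (0 to 2 with a library left out). NFKBIA was also gained by limma voom and in the fit of all 12 libraries, with TNFAIP3 and TRAF1 still called. Members whose change differed between the lines numbered 2, and 1 with no filter on low counts (1 to 3 with a library left out). By limma voom, NFKBIE passed as well as NFKBIA and TNFAIP3. Other pathway genes called in SUDHL6 numbered 13, and 3 in the fit of all 12 libraries (10 to 13). In SUDHL16 they numbered 13, and 29 by limma voom and 27 in the fit of all 12 (5 to 21).

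Among all genes, calls in SUDHL6 were 1493, and 140 in the fit of all 12 (1369 to 1462 with a library left out). In SUDHL16 they were 833, and 1775 by DESeq2, 2648 by limma voom and 2855 in the fit of all 12 (279 to 1636). Differences between the lines were 1404, and 2964 by DESeq2, 2873 by limma voom and 841 with no filter (830 to 2930).

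Signs turned for members near 0 and not called. In SUDHL16 NFKB1 (−0.00) became 0.14 with library totals, 0.12 with no filter and 0.04 in the fit of all 12 (−0.29 to 0.18 with a library left out). REL (−0.11) became 0.02 and 0.01 with totals and no filter (−0.31 to 0.04). RELA (0.12) became −0.12 by limma voom (−0.09 to 0.29). The difference between the lines for RELA (0.09) became −0.19 by limma voom and −0.04 under upper-quartile scaling (−0.14 to 0.28). For all of these, the cause was not tested.

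Of the other member tests with a library left out, 217 kept direction and side of the threshold, 11 lost a call and 3 gained it. Under the other alternatives these numbers were 185, 3 and 4. Of tests in which a named pathway gene was called, 229 kept both and 53 lost the call with a library left out, and 199 and 26 did so otherwise. Named pathway genes not called gained a call in 3 tests with a library left out (BCL2A1, CCR7 and IL10) and in 10 otherwise (NFKBID, BCL2A1, CD69 and IL10). Library totals moved the SUDHL16 median of all genes from −0.02 to 0.11, and upper-quartile scaling and DESeq2 that of the differences from −0.05 to −0.20 and −0.15. With no filter on low counts, which adds genes with few counts, these medians were −1.18 in SUDHL16 and −0.96 for the differences. Low depth in CE-26 (4131927 counts) limits what can be said of scarce genes. No paired analysis was made, because nothing in the labels ties a library of one group to a library of another.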
